A study of Mus musculus with 19 samples.

Results

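The 37 genes described here mark T cells, natural killer (NK) cells and B cells, and they were followed through liver tumours of mice that carry an inducible β-catenin allele and an inducible human MYC gene. They are listed by name for the lymphocyte in which each is used, by a rule with no threshold on their values, although the list was drawn up with earlier results of these data known. All 37 were found by symbol among the 39179 Ensembl gene identifiers of the count table. The series holds 19 bulk RNA-seq samples of mouse liver, of which 13 are tumours, 3 are control livers and 3 are livers given a high dose of virus. Of these, 10 tumours, numbered 4 to 13, have a column that can be tied to a single sample, and the 9 other columns were not used here. All 10 tumours came from male mice that were heterozygous for Ctnnb1tm1Mmt and homozygous for Gt(ROSA)26Sortm1(MYC)Djmy, and all had received the virus AAV8.TBG.PI.Cre.rBG at 6.4e+08 genome copies per mouse. TBG is a hepatocyte promoter and the dose was low, so recombination was directed to scattered hepatocytes from which single clones grow, and the lymphocytes of these immunocompetent animals of mixed background are host cells. As the control columns could not be used, no value below compares tumour with liver.

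A T cell reads antigen through a receptor whose CD3 chains pass the signal to the kinases Lck and Zap70 and from there to the adaptor Lat. Cytotoxic T cells and NK cells kill their targets with perforin and granzymes, and recently activated T cells carry inhibitory receptors such as Pdcd1, Ctla4, Lag3 and Tigit. B cells signal through the CD79 chains that accompany surface immunoglobulin, and plasma cells secrete it. In normal liver these cells lie mainly in the sinusoids and portal tracts, beside the resident macrophages.

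Reads of lymphocyte genes were scarce in every tumour. The 37 genes together took between 187 counts in tumour 5 and 1399 counts in tumour 13, out of 11687034 (tumour 7) to 36964427 (tumour 13) counts per library, which is 0.0011% to 0.00662% of a library. Scaled to CPM, the counts relative to the library total after adjustment by the trimmed mean of M values, their sum ranged from 11.1 CPM in tumour 10 to 57.6 CPM in tumour 11, with a median of 31.9 CPM. Of the 37 genes, 16 had fewer than 50 counts over all 10 tumours, 20 had no count in at least 1 tumour, and 14 passed the filter on low counts that every test below used. A count of 0 allows up to 3 counts as a one-sided 95% limit (the two-sided 95% exact intervals used for single counts run to 3.69 counts at 0), which on this scale is 0.0793 CPM in tumour 13, the deepest library, and 0.266 CPM in tumour 7, the shallowest; intervals and floors cover counting error only. In bulk tissue, fewer cells of a type and less RNA per cell cannot be told apart.

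**Figure D1:**
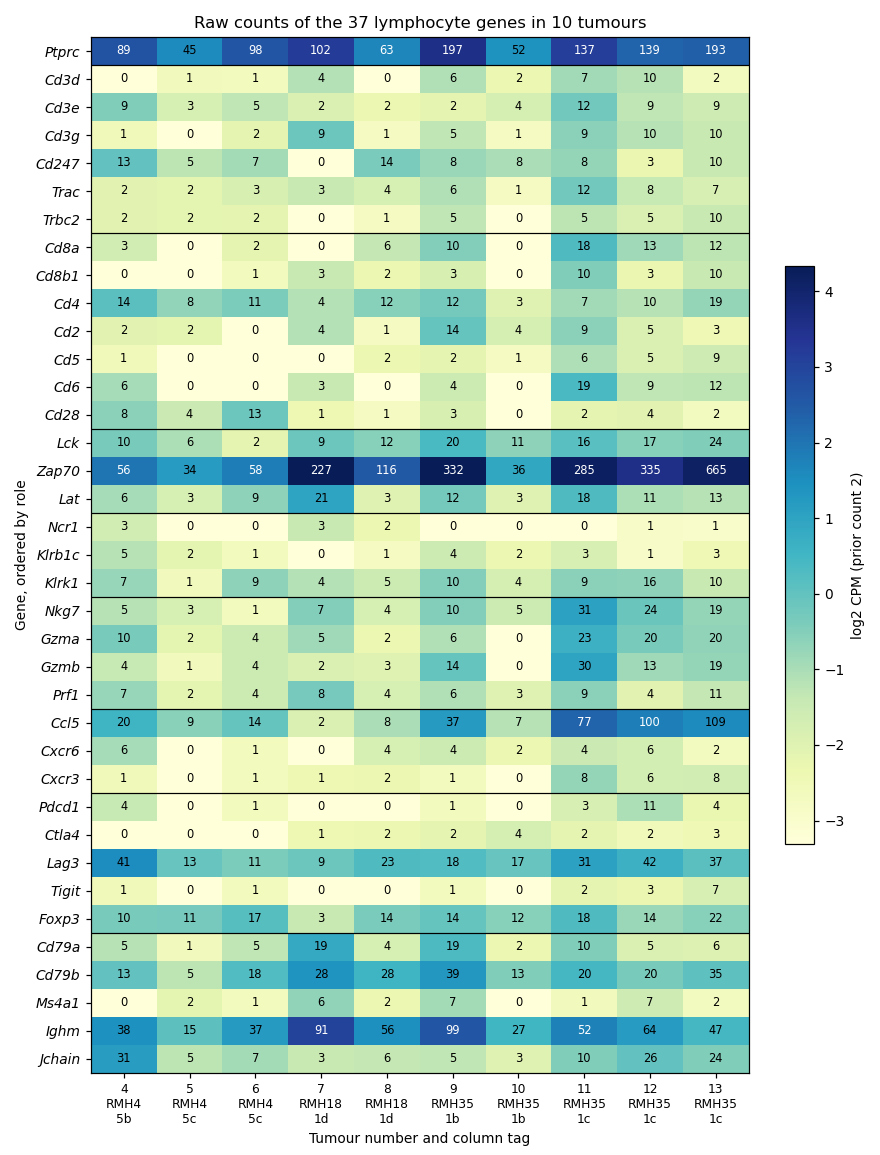
Raw counts of the 37 genes (rows, grouped by role between the black lines) in tumours 4 to 13 (columns, with the tag given in the column name); the colour shows log2 CPM and the printed number is the count. Most cells of the map hold fewer than 20 counts, Zap70 reaches 665 counts in tumour 13 and Ptprc 197 counts in tumour 9, and tumour 10 has 12 genes without a count.

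Hepatocyte and macrophage genes were checked beside them. Albumin stood at 13040 to 23970 CPM, and Glul, a target of β-catenin in hepatocytes, at 5173 to 14690 CPM. Macrophage genes were far better covered than lymphocyte genes, with 2079 to 6491 counts over 8 markers. RNA without a poly(A) tail, which a poly(A) library should hold little of, was at 47.0 to 80.3 CPM in tumours 5, 6 and 7 and at 1.72 to 6.39 CPM in the others. The column names carry a tag whose first part divides the tumours into RMH4 (tumours 4 to 6), RMH18 (7 and 8) and RMH35 (9 to 13) and whose second part divides them further, so that tumours 11, 12 and 13 share RMH35_1c. The labels do not say what the tag stands for, so tumours that share one may not be independent.

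Ptprc, which encodes CD45, the phosphatase of all leukocytes, was the best covered membrane gene of the 37. It had 89, 45, 98, 102, 63, 197, 52, 137, 139 and 193 counts in tumours 4 to 13 in that order, the order used for every such series. Its level was highest in tumour 9 at 12.0 CPM and lowest in tumour 10 at 2.54 CPM, a 4.71-fold range in which the 95% exact Poisson intervals of both tumours were apart. Tumours 5, 8 and 10 formed the lower end. Of the 37 genes, 23 (62.2%) had intervals apart between their highest and lowest tumour, near the 63.3% of the 24682 genes with at least 1 count. Of the 14 that passed the filter it was 13 (92.9%), near the 96.3% of the 14928 genes that passed.

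The chains of the T cell receptor complex were all close to the limit of detection. Cd3e, the chain shared by all T cells, had 9, 3, 5, 2, 2, 2, 4, 12, 9 and 9 counts. Cd3g had 1, 0, 2, 9, 1, 5, 1, 9, 10 and 10 counts, and Cd3d had 0, 1, 1, 4, 0, 6, 2, 7, 10 and 2. Summed over these 3 CD3 chains, tumours 11, 12 and 13 held the most counts, with 28, 29 and 21, and tumours 8, 5 and 10 the fewest, with 3, 4 and 7. The interval of tumour 11 ran from 18.6 to 40.5 counts and that of tumour 8 from 0.62 to 8.77 counts. In CPM the order changed with depth: tumour 11 was highest at 1.75, tumour 7 came next at 1.33 and tumour 13 stood at 0.555.

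Cd247, the zeta chain that also serves NK cell receptors, did not follow the other chains. It had 13, 5, 7, 0, 14, 8, 8, 8, 3 and 10 counts, with its highest level in tumour 4 and no count in tumour 7, where Cd3g had its highest level. Cd247 overlaps Pou2f1 in the annotation, a gene with 78 to 417 counts, and the part of that overlap was not tested. The constant segments of the receptor itself were as sparse. Trac, of the alpha chain, had 2, 2, 3, 3, 4, 6, 1, 12, 8 and 7 counts, and Trbc2, of the beta chain, had 2, 2, 2, 0, 1, 5, 0, 5, 5 and 10, so that both were highest in tumour 11 in CPM.

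Among the coreceptors, Cd4 had counts in all 10 tumours and Cd8a in 7. Cd4, which marks helper T cells and is also carried by some mouse myeloid cells, had 14, 8, 11, 4, 12, 12, 3, 7, 10 and 19 counts. Cd8a, which marks cytotoxic T cells and a class of dendritic cells, had 3, 0, 2, 0, 6, 10, 0, 18, 13 and 12 counts, and its partner Cd8b1, which is more restricted to T cells, had 0, 0, 1, 3, 2, 3, 0, 10, 3 and 10. Together the CD8 genes reached 28, 16 and 22 counts in tumours 11, 12 and 13, 13 in tumour 9 and at most 8 in the 6 others. Depth is part of this order, as in CPM the ranges overlapped. Cd8a stood at 0.317 to 1.12 CPM in tumours 11, 12 and 13 and at up to 0.606 CPM in the others. Cd8b1 stood at 0.103 to 0.624 CPM against up to 0.266 CPM. Cd4 was highest in tumour 4, at 0.972 CPM, and the CD8 genes were highest in tumour 11.

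The other surface genes of T cells followed no single order. Cd6, a modulator of receptor signalling, had 6, 0, 0, 3, 0, 4, 0, 19, 9 and 12 counts, and the related Cd5 had 1, 0, 0, 0, 2, 2, 1, 6, 5 and 9. Cd2, an adhesion receptor of T and NK cells, had 2, 2, 0, 4, 1, 14, 4, 9, 5 and 3 counts. The costimulatory receptor Cd28 was instead highest in tumour 6, with 8, 4, 13, 1, 1, 3, 0, 2, 4 and 2 counts. Cd5 and Cd6 were highest in tumour 11, Cd2 in tumour 9. Summed over the 7 coreceptor and costimulation genes, the level ran from 0.39 CPM in tumour 10 to 4.43 CPM in tumour 11.

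Zap70, the kinase that binds the phosphorylated CD3 and zeta chains, stood apart from the other T cell genes of the 37. It had 56, 34, 58, 227, 116, 332, 36, 285, 335 and 665 counts, in all 2144, or 33.3% of the counts of the 37 genes. Its level was high in tumours 7, 9, 11, 12 and 13, at 20.1, 20.1, 17.8, 11.5 and 17.6 CPM, and low in tumours 4, 5, 6, 8 and 10, at 1.76 to 5.65 CPM, and no tumour lay between 5.65 and 11.5 CPM. Per kb of exon, its median level was 2.41 CPM, against 0.194 for Lck, 0.14 for Lat and 0.167 for the sum of the 3 CD3 chains. The number of Zap70 counts per CD3 count ranged from 5.14 in tumour 10 to 38.7 in tumour 8, and was 31.7 in tumour 13, which had 21 CD3 counts. The pseudogene Gm18828, annotated inside Zap70, had 0 counts in every tumour.

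**Figure D2:**
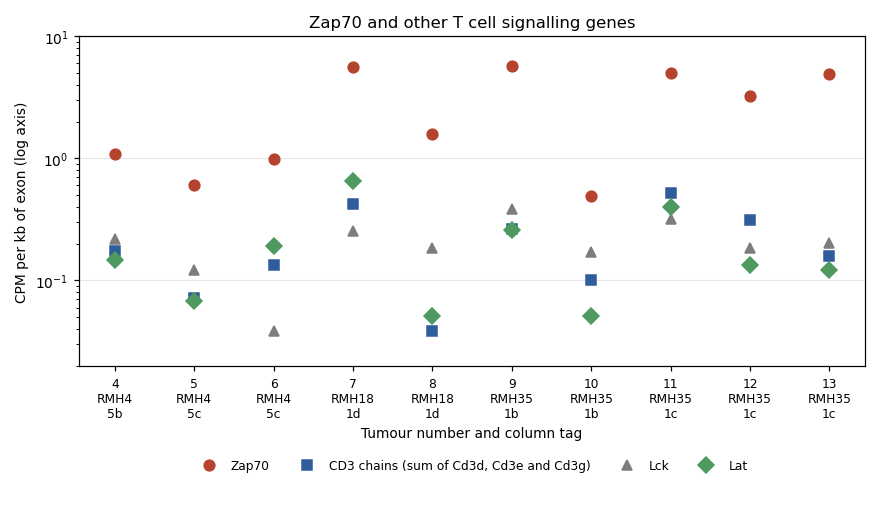
Level per kb of exon, on a log axis, of Zap70, Lck, Lat and the sum of the 3 CD3 chains in each tumour, 1 point per gene and tumour. Zap70 lies above the other 3 in all 10 tumours, between 0.493 and 5.65 CPM per kb, and is high in tumours 7, 9, 11, 12 and 13.

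Zap70 lies on chromosome 1 (chr1:36761798-36782821, GRCm38.p6, plus strand), and RefSeq gives it 3 start sites. Their windows, from 250 bases before to 50 bases after the start, are printed 5′ to 3′ because this gene had the most counts of the 37, and those of Cd3e and Lat, its partners upstream and downstream in the pathway, follow for comparison. Capitals mark 2 of the 4 motifs searched on both strands, CACGTG (the E-box bound by MYC and related factors) and CAGGAAG (a form of the site bound by ETS factors), the only ones of the 4 found in these 5 windows. CAGGAAG on the opposite strand reads CTTCCTG, as in Cd3e and Lat.
Zap70, first start, chr1:36761548-36761847, plus strand: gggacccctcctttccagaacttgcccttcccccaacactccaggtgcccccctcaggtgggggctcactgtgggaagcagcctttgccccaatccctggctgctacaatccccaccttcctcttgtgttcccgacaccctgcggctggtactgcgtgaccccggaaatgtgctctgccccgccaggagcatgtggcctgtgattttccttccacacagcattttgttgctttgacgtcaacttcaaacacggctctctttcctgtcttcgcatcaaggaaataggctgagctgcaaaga
Zap70, middle start, chr1:36764265-36764564, plus strand: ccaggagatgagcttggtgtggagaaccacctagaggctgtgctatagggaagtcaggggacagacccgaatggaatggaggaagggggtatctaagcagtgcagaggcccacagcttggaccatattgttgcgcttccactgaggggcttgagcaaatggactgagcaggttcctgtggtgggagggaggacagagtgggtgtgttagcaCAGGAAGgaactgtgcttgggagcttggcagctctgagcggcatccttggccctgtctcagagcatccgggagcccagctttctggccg
Zap70, last start, chr1:36778734-36779033, plus strand: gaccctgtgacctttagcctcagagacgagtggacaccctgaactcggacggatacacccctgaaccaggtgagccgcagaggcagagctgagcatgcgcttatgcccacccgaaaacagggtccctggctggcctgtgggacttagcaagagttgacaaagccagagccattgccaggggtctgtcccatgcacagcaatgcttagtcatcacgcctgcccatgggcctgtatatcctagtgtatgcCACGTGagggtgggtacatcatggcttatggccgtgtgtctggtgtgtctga
Cd3e, chr9:45009562-45009861, minus strand: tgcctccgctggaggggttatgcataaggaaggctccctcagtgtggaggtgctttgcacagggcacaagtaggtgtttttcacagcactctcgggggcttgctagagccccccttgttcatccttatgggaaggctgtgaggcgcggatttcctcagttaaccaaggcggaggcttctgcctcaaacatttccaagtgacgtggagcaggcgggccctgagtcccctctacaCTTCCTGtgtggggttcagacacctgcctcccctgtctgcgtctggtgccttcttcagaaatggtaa
Lat, chr7:126369519-126369818, minus strand: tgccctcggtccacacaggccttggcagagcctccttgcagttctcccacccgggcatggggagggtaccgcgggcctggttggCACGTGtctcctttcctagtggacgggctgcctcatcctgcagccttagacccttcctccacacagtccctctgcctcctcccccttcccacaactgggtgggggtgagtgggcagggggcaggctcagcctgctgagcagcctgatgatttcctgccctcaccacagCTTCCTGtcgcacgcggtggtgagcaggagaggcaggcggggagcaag
The first Zap70 window holds none of the motifs, the middle one holds CAGGAAG and the last CACGTG, the latter also found in the window of Lat. RefSeq windows were given for 25 of the 37 genes, 31 windows in all, and 12 genes, Ccl5 among them, have none in the table used. CACGTG was in 2 of these 31 windows (6.45%) and in 7.15% of all 32851 promoter windows of the same length. CAGGAAG was in 13 (41.9%) against 13.3% of all, and TGTGGTT, a form of the RUNX site, in 8 (25.8%) against 5.27%. CTTTGAT, a form of the TCF/LEF site, was in 2 (6.45%) against 3.73%. A match gives letters, not binding, and several windows of 1 gene overlap. The counts do not tell from which start the Zap70 reads came.

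Lck and Lat, which act before and after Zap70, had 127 and 99 counts over all tumours. Lck had 10, 6, 2, 9, 12, 20, 11, 16, 17 and 24 counts, and Lat 6, 3, 9, 21, 3, 12, 3, 18, 11 and 13. Lck varied the less of the pair, with an SD of 0.70 on the log2 scale against 0.98 for Lat, whose highest level was 1.86 CPM in tumour 7. Of the other genes of T cell lineage and signalling, 28 of 29 were in the table and 13 passed the filter. Some that are largely restricted to T cells were sparse like the CD3 chains: the transcription factor Bcl11b had 0 to 6 counts and the costimulatory receptor Icos 0 to 8. Prkcq, a kinase of the same list, was not, at 0.45 to 6.82 CPM. Its means were 0.640 CPM in RMH4, 4.02 CPM in RMH18 and 2.18 CPM in RMH35. Tcf7 (443 to 1896 counts) and S1pr1 (422 to 2769) were abundant, and both are also used by liver or endothelial cells.

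NK cell receptors were near 0. Ncr1, the receptor that defines mouse NK cells, had 3, 0, 0, 3, 2, 0, 0, 0, 1 and 1 counts, 10 in all. Klrb1c, which encodes NK1.1 in some strains, had 5, 2, 1, 0, 1, 4, 2, 3, 1 and 3. Klrk1, the receptor NKG2D of NK cells and CD8 T cells, had 7, 1, 9, 4, 5, 10, 4, 9, 16 and 10 counts, and its highest and lowest tumours had overlapping intervals. Its ligands Raet1d, Raet1e, Ulbp1 and H60b had between 0 and 9 counts per tumour. None of 14 further genes of NK and cytotoxic cells passed the filter, among them Eomes (0 to 13 counts), Tbx21 (0 to 5) and Ifng (0 to 2), the last encoding the cytokine interferon gamma.

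Genes of the cytotoxic granule were most abundant in tumours 11, 12 and 13 by count. Nkg7, a granule membrane protein, had 5, 3, 1, 7, 4, 10, 5, 31, 24 and 19 counts. The granzymes, the proteases delivered into target cells, had a like order, with 10, 2, 4, 5, 2, 6, 0, 23, 20 and 20 counts for Gzma and 4, 1, 4, 2, 3, 14, 0, 30, 13 and 19 for Gzmb. Perforin, which opens the target membrane, did not separate these tumours by count: Prf1 had 7, 2, 4, 8, 4, 6, 3, 9, 4 and 11 counts, and the intervals of its extremes overlapped. In CPM, Nkg7, Gzma and Gzmb did not separate tumours 11, 12 and 13 either. Their lowest levels there, 0.50, 0.53 and 0.45 CPM, lay below the highest of the others, 0.62, 0.69 and 0.85 CPM. Summed over the 4 genes, tumour 11 stood at 5.81 CPM and the 9 others at 0.39 to 2.18 CPM, so that in CPM tumours 12 and 13 (2.09 and 1.82) lay within the range of tumours 4, 7 and 9 (1.80 to 2.18).

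**Figure D3:**
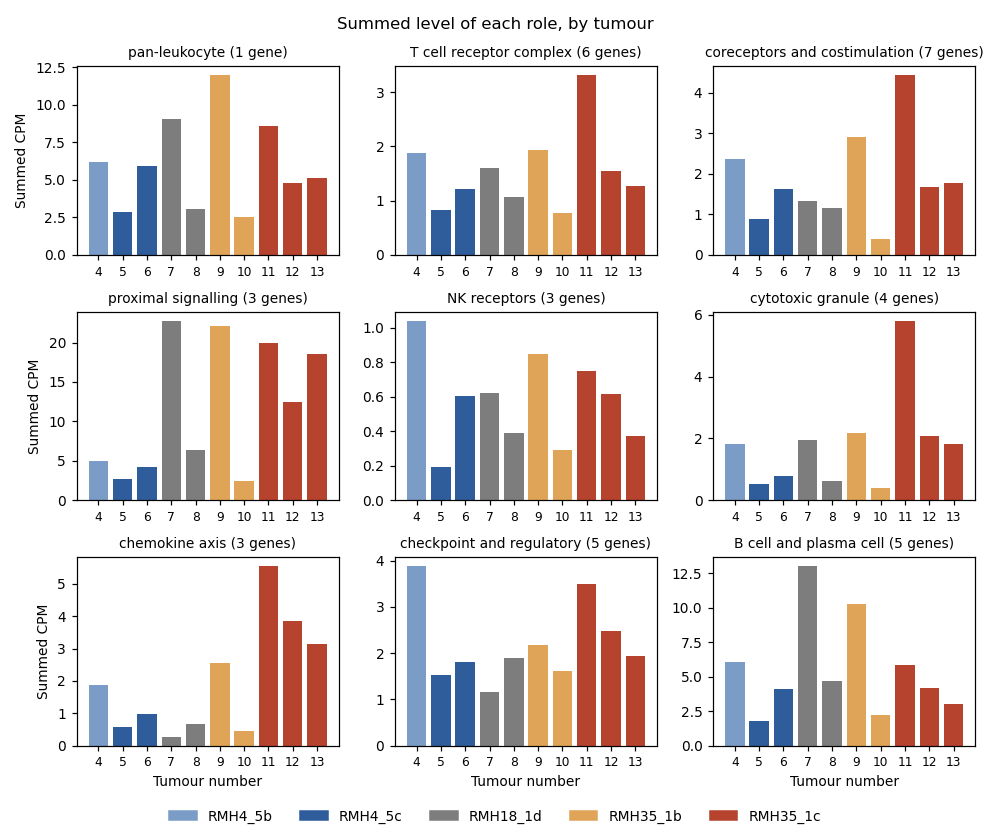
Summed CPM of each role in tumours 4 to 13, with bars coloured by column tag and each panel on its own axis from 0. Tumour 10 or tumour 5 is lowest in 7 of the 9 panels, tumour 11 is highest in the T cell receptor, coreceptor, cytotoxic and chemokine panels, and tumour 7 is highest in the B cell panel at 13.0 CPM.

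Ccl5, a chemokine made by activated T and NK cells, had the widest spread of the 14 genes tested (chr11:83525778-83530518, GRCm38.p6). It had 20, 9, 14, 2, 8, 37, 7, 77, 100 and 109 counts. Tumours 11, 12 and 13 stood at 4.81, 3.43 and 2.88 CPM, tumour 9 at 2.24 CPM, and the other 6 at 0.177 to 1.39 CPM. Its SD over the tumours, 1.43 on the log2 scale, was followed by that of Zap70 at 1.36. The chemokine receptors were sparse, with 1, 0, 1, 1, 2, 1, 0, 8, 6 and 8 counts for Cxcr3 and 6, 0, 1, 0, 4, 4, 2, 4, 6 and 2 for Cxcr6. Cxcr6 lies in Fyco1, a gene with 854 to 3476 counts, and reads of the pair may not have been told apart. Cxcl9, a ligand of Cxcr3, had 465, 741 and 669 counts in tumours 11, 12 and 13, 248 in tumour 4 and 20 to 78 in the rest, while Cxcl16, the ligand of Cxcr6, had 58 to 190. In CPM, Cxcl9 stood at 29.0, 25.4 and 17.7 in tumours 11, 12 and 13, and tumour 4, at 17.2, was close to tumour 13. Cxcl10, another ligand of Cxcr3, did not follow Cxcl9: it was highest in tumour 9 at 14.4 CPM, and tumours 4 and 5, at 12.4 and 12.8 CPM, lay above tumours 12 and 13, at 10.1 and 8.60 CPM. Cxcl11, also a ligand of Cxcr3, was highest in the same 3 tumours as Cxcl9, with 2.00, 2.13 and 1.80 CPM in tumours 11, 12 and 13 and 0 to 1.42 CPM in the others.

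Counts of the inhibitory receptors ran from 15 over all tumours for Tigit to 242 for Lag3. Lag3 had 41, 13, 11, 9, 23, 18, 17, 31, 42 and 37 counts, and its highest level, 2.85 CPM, was in tumour 4. Pdcd1, which encodes PD-1, had 4, 0, 1, 0, 0, 1, 0, 3, 11 and 4 counts, and Ctla4 had 0, 0, 0, 1, 2, 2, 4, 2, 2 and 3. Tigit had 1, 0, 1, 0, 0, 1, 0, 2, 3 and 7 counts, in a gene that the annotation overlaps with Zbtb20 (803 to 3811 counts). The ligands of these receptors ranged from sparse to abundant. Nectin2 and Pvr, bound by Tigit, had 674 to 2372 and 304 to 2320 counts, Fgl1, a hepatocyte ligand of Lag3, had 1035 to 18155, and Cd274, which encodes PD-L1, had 23 to 126. Pdcd1lg2, the other ligand of PD-1, had 0 to 3 counts, and Cd80 and Cd86, the ligands of Ctla4, had 2 to 13 and 17 to 74.

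Foxp3, the factor that defines regulatory T cells, varied least. It had 10, 11, 17, 3, 14, 14, 12, 18, 14 and 22 counts, its SD on the log2 scale was 0.50, the smallest of the 14 genes tested, and the intervals of its highest and lowest tumours overlapped. Per kb of exon its median level, 0.15 CPM, was above that of Cd3e at 0.0531 CPM. Foxp3 overlaps Flicr (0 to 13 counts) and Ccdc22 (3 to 15 counts) in the annotation, and the part of those genes was not tested. Il2ra, the receptor chain that regulatory T cells carry, had 0 to 4 counts.

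B cell genes had 969 counts in all, and 4 of the 5 passed the filter. Ighm, the constant region of IgM, had 38, 15, 37, 91, 56, 99, 27, 52, 64 and 47 counts, with its highest levels of 8.06 CPM in tumour 7 and 6.00 CPM in tumour 9. The signalling chains had the same 2 tumours at the top, with 5, 1, 5, 19, 4, 19, 2, 10, 5 and 6 counts for Cd79a and 13, 5, 18, 28, 28, 39, 13, 20, 20 and 35 for Cd79b. Ms4a1, which encodes CD20, had 0, 2, 1, 6, 2, 7, 0, 1, 7 and 2 counts and did not pass the filter. Jchain, which joins secreted IgA and IgM and marks plasma cells, had another order, with 31, 5, 7, 3, 6, 5, 3, 10, 26 and 24 counts and its highest level, 2.15 CPM, in tumour 4. B cell genes made up 25.2% of the counts of the 37 genes in tumour 7 and 8.15% in tumour 13.

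The tumours highest in Ighm, Cd79a and Cd79b were also highest in blood, vessel, stromal and platelet genes. Tumours 7 and 9 had the most red cell RNA, with 5931 and 1697 CPM over the 5 blood markers, against 104 to 880 CPM in the others; in tumours 11, 12 and 13, where Ccl5 was highest, it was 104 to 132 CPM. The same tumours 7 and 9 held the highest sums of 5 endothelial markers, at 290.1 and 177 CPM against 35.6 to 163 CPM, and of 4 stellate and fibroblast markers, at 1128 and 1221 CPM against 182 to 643 CPM. Their sums over 3 platelet markers were 25.9 and 15.7 CPM, the latter close to the 15.3 CPM of tumour 4. The part of these cells in the B cell levels was not tested beyond the slopes on the haemoglobins and on Pecam1, which follow with the other fits.

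The design gives no labelled contrast among these 10 tumours, so 2 descriptive questions were tested on all genes: whether levels differed between column tags, and whether they moved with the level of another cell type. The test was the edgeR quasi-likelihood F test with Benjamini-Hochberg adjustment over all genes that passed the filter, and p-values measure only the spread between these samples. Across the 3 first parts of the tag, 0 of the 14 members tested were called at an adjusted p below 0.05, where 0.0469% of 14928 genes were. At an unadjusted p below 0.05 there were 2, Ccl5 and Zap70, against 12.9% of all genes, and DESeq2 called 1, Ccl5, where it called 3.59% of all genes. In the same fit 3 of 5 blood markers (Hba-a1, Hba-a2 and Alas2), 2 of 5 endothelial markers (Kdr and Stab2), 1 of 8 macrophage markers (Cd68) and both tested genes of RNA without a poly(A) tail passed an unadjusted p below 0.05, none called, and their part in the levels of Ccl5 and Zap70 was not tested.

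Between the 5 RMH35 tumours and the 3 RMH4 tumours, edgeR again called 0 of 14 members, with 0.0469% of all genes called; 3 members passed an unadjusted p below 0.05, as did 16.3% of all genes, and DESeq2 called 1, Zap70, with 4.41% of all genes. Zap70 was higher in RMH35 by 2.11 ± 0.70 on the log2 scale (SE, edgeR adjusted p = 0.194), with means of 13.8 ± 7.43 CPM (SD, n = 5) and 3.19 ± 0.901 CPM (SD, n = 3), and tumour 10 of RMH35 lay below all 3 RMH4 tumours. Nkg7 was higher by 2.01 ± 0.81 (adjusted p = 0.26) and Ccl5 by 1.55 ± 0.69 (adjusted p = 0.299), neither past the threshold. Cd4 and Jchain had differences of the other sign, -0.73 ± 0.50 and -0.85 ± 0.69, with adjusted p-values of 0.494 and 0.57. The median difference over the 14 members was 0.55, and 10 of the 14 were positive. RNA without a poly(A) tail also differed along this division, at 60.2 and 47.0 CPM in tumours 5 and 6 and 6.39 CPM in tumour 4 of RMH4 against 1.72 to 4.62 CPM in RMH35, and both of its tested genes, Rpph1 and Rmrp, passed an unadjusted p below 0.05 with lower levels in RMH35, neither called. All 4 tested neutrophil markers and all 5 endothelial markers had negative differences, with medians of -2.17 and -0.89 and 1 of each at an unadjusted p below 0.05. At the same threshold the macrophage marker Cd68 and the cholangiocyte marker Sox9 were lower in RMH35, and the blood marker Hba-a2 was higher, none called. Their part in the members' differences was not tested.

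**Figure D4:**
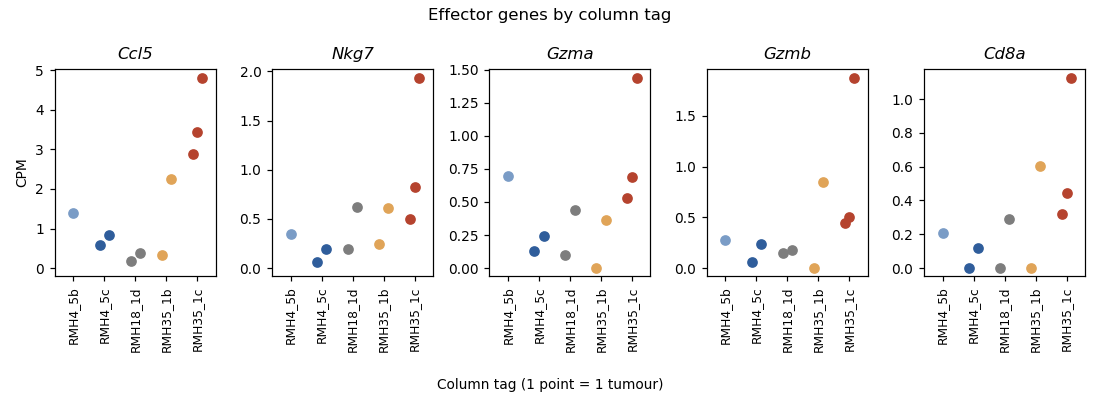
CPM of Ccl5, Nkg7, Gzma, Gzmb and Cd8a in each tumour, grouped by full column tag (RMH4_5b, RMH4_5c, RMH18_1d, RMH35_1b, RMH35_1c), 1 point per tumour and each panel on its own linear axis. For Ccl5 the 3 RMH35_1c tumours, at 2.88 to 4.81 CPM, lie above the 7 others; for the 4 other genes at least 1 of the 3 lies within the range of the others.

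Seen by full tag, a division examined after the values by tumour were known, the 3 RMH35_1c tumours lay above all 7 others for 1 of the 14 tested members, Ccl5, against 3.99% of the 14928 genes. The mean of Ccl5 was 3.71 CPM in the 3 and 0.852 CPM in the 7. Of the 5 full tags, RMH4_5b holds tumour 4 alone, where Jchain was highest at 2.15 CPM, so that group had no replicate. The F test over the 5 full tags called 0 of 14 members, where 0.811% of all genes were called, with 2 at an unadjusted p below 0.05, near the 14.4% of all genes: Jchain (adjusted p = 0.137) and Ccl5 (adjusted p = 0.198). DESeq2 called 1, Ccl5, with 8.82% of all genes. The same 3 tumours lay below all 7 others in the summed endothelial markers (35.6 to 39.6 CPM against 41.8 to 290.1 CPM), stellate and fibroblast markers (182 to 232 CPM against 268 to 1221 CPM) and blood markers (104 to 132 CPM against 219 to 5931 CPM). Over the full tags 3 of 5 endothelial, 4 of 5 blood, 3 of 4 tested neutrophil and both tested genes of RNA without a poly(A) tail passed an unadjusted p below 0.05, none called, and their part in the Ccl5 levels was not tested. Leaving out tumour 9, the next highest, edgeR called Ccl5 too, with 0.968% of all genes. Of the 22 chemokines and ligands, 13 were tested and 2 were called over the full tags, Cxcl9 (adjusted p = 0.00579) and Fgl1 (adjusted p = 0.0219), the latter highest in tumours 5 and 6 at 973 and 1100 CPM and lowest in tumour 11 at 64.6 CPM.

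The slope of each gene on the summed CD3 level asks which genes moved with the T cell receptor complex over the tumours. No gene of 14928 was called (0%), hence 0 of the 14 members, also by DESeq2 among the members. At an unadjusted p below 0.05 there were 7 members, all with a positive slope, against 7.9% of all genes: Lat, Nkg7, Gzma, Ptprc, Cd79a, Ccl5 and Zap70. In the same fit 4 of 5 blood markers and 3 of 8 macrophage markers passed an unadjusted p below 0.05 with positive slopes, and their part in the members' slopes was not tested. Lat had a slope of 1.22 ± 0.26 log2 units per log2 unit of CD3 (SE, adjusted p = 0.624), rank 8 of all genes by p, and Nkg7 one of 1.17 ± 0.27, rank 13, with the same adjusted p. Cd4 and Foxp3 had slopes near 0, at -0.05 ± 0.29 and 0.03 ± 0.23. The CD3 sum rests on 3 to 29 counts per tumour, so counting error is a large part of its spread.

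With the CD79 level, edgeR called 0 of the 12 members left and 0% of 14926 genes, 4 members passed an unadjusted p below 0.05 (13% of all genes did), and DESeq2 called 2, Ighm and Ptprc, with 2.32% of all genes. Ighm ranked first of all genes, with a slope of 0.97 ± 0.13 (adjusted p = 0.12). Of the other members, Ptprc came next by p, with a slope of 0.66 ± 0.15 (adjusted p = 0.138), and then Lat, with 1.04 ± 0.26 (adjusted p = 0.157). Jchain did not share the slope, at -0.21 ± 0.47 (adjusted p = 0.901). All 5 blood markers passed an unadjusted p below 0.05 in the same fit, each with a positive slope, as did 4 of 8 macrophage, 3 of 4 stellate and fibroblast and 2 of 5 endothelial markers, and none was called. Their part in the members' slopes was not tested.

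Csf1r, the growth factor receptor of macrophages, was covered by 213 to 1025 counts per tumour, 22.7 to 198 for each CD3 count, and so has less counting error. With it edgeR called 0 of 14 members and 0% of 14927 genes, and DESeq2 called 4, Cd79a, Ighm, Lat and Ptprc, with 0.958% of all genes. At an unadjusted p below 0.05 edgeR had 6 members, against 8.95% of all genes, and all 14 slopes were positive. Markers of other cell types also had positive slopes in this fit, and none was called. All 5 blood markers passed an unadjusted p below 0.05 with a median slope of 2.12, and the slopes of all 5 endothelial markers, all 4 stellate and fibroblast markers and all 4 tested neutrophil markers were positive. Their part in the members' slopes was not tested. Cd79a had the steepest, 2.42 ± 0.43 (adjusted p = 0.176), and ranked 12 of all genes by p; Ighm had 1.39 ± 0.28 (adjusted p = 0.209) and Lat 1.69 ± 0.39 (adjusted p = 0.22). Ccl5, Lag3 and Foxp3 had slopes of 0.50 ± 0.95, 0.11 ± 0.43 and 0.10 ± 0.34, each within its error of 0.

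**Figure D5:**
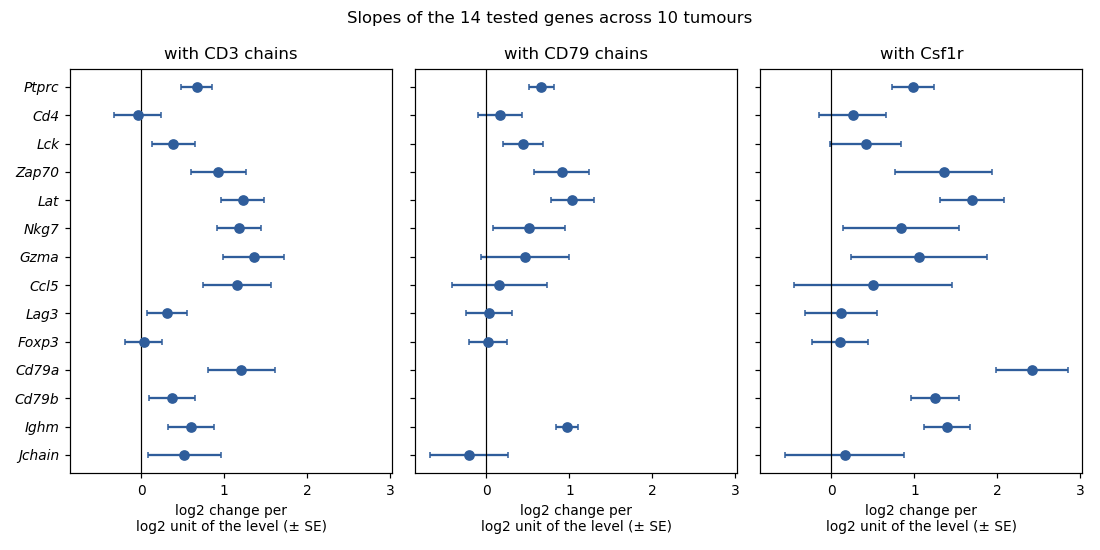
Slope of each of the 14 tested genes on the log2 CPM of the CD3 chains, the CD79 chains and Csf1r over 10 tumours; points are edgeR estimates, bars 1 SE, and the vertical line is 0. Cd79a and Cd79b have no point in the middle panel because they make up that level; Cd79a is steepest with Csf1r at 2.42, and Cd4 and Foxp3 lie near 0 with CD3.

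The remaining levels called no member by edgeR. With Pecam1, of endothelium, 0 of 14 were called where 5.97% of all genes were, 2 passed an unadjusted p below 0.05 (Ccl5 with a negative and Cd79a with a positive slope) against 21.7% of all genes, and DESeq2 called 0. Called with positive slopes in this fit were 3 of 4 other endothelial (Cdh5, Kdr and Stab2), 3 of 5 blood (Hbb-bs, Hbb-bt and Hba-a1), 2 of 4 stellate and fibroblast (Col1a1 and Col3a1), 1 of 3 platelet (Pf4) and 1 of 8 macrophage markers (Cd68), and both tested genes of RNA without a poly(A) tail, Rpph1 and Rmrp, at a median slope of 1.29. Their part in the slopes of Ccl5 and Cd79a was not tested. With Glul, 0 of 14 and 0% of all genes were called, 3 passed an unadjusted p below 0.05, all with negative slopes, against 3.83% of all genes, and DESeq2 called 0; Ptprc had a slope of -0.93 ± 0.39, Zap70 of -1.56 ± 0.71 and Cd79a of -1.82 ± 0.80, each at an adjusted p of 0.998. Slopes on Glul were negative too for all 8 macrophage, 5 endothelial, 5 blood, 4 stellate and fibroblast, 4 tested neutrophil and 3 platelet markers, with none called and 1 blood and 1 platelet marker at an unadjusted p below 0.05; their part in the members' slopes was not tested. With the haemoglobins 0 of 14 were called where 2.71% of all genes were, 3 passed an unadjusted p below 0.05, all B cell genes, against 15.4% of all genes, and DESeq2 called 2, Cd79a and Ighm, with 5.55% of all genes. Their edgeR slopes were 0.45 ± 0.13 and 0.30 ± 0.09, both at an adjusted p of 0.101. Markers of other cell types were called in this fit, all with positive slopes: 3 of 5 endothelial (Pecam1, Kdr and Stab2), 2 of 4 stellate and fibroblast (Col1a1 and Col3a1), 1 of 3 platelet (Pf4) and 1 of 8 macrophage markers (Lyz2). Their part in the B cell slopes was not tested. Without the 2 tumours farthest from the median haemoglobin level, edgeR called 1 gene in all, against 404 with every tumour.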

How the data were processed

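Whole tumours were sequenced from poly(A) RNA with a stranded kit. The authors deposited 1 table of raw read counts per Ensembl gene; the submitters' processing notes name TopHat2, HTSeq and the build GRCm38, while the methods of the study describe other tools and another build for its bulk libraries, so which made this table is not settled here. Whether counting used strand is not given in the sources used here. Its 5 summary lines, which held 51.7% to 66.0% of a column (45.4% to 57.9% as alignments that were not unique), were left out. Of the columns, 10 matched the title of a single tumour and 9 columns of per-sample values were not used.

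Scaling was by the trimmed mean of M values in edgeR 4.0.16 under R 4.3.3, and log2 levels carry a prior of 2 counts. The tests (glmQLFit, glmQLFTest) took in the 14928 genes whose CPM reached that of 10 counts in the median library in at least 3 tumours, with 15 or more counts in all. Levels per kb used union exon lengths of GENCODE M39, and symbols were found for 34199 of 39179 identifiers (87.3%). Positions and promoter windows are RefSeq, GRCm38.p6. The tests were checked on simulated counts with the dispersion trend of all genes. That check does not show which differences could be detected for single members. Alternatives were DESeq2 1.42.0, other scaling, filters, a robust fit, a covariate for RNA without a poly(A) tail, the tag family as a covariate, a prior count of 0.5, and leaving out tumours. Named genes are all 37, then the called and most abundant of the related lists. The genes and lists were chosen with earlier results of these data known. Values of a few genes of the related lists are not reported here.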

Additional observations from a re-analysis of the deposited data

How the results depend on the processing

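No paired analysis was possible because only 1 labelled group, the tumours, has columns that can be tied to samples. Over 22 results and 323 alternative values, 314 kept to the value reported within the limits set and 9 moved. Reversals were not scored apart from moves. For the summed CPM values the limit was 1 SD over the tumours, which their mean cannot pass when 1 tumour is left out. Those leave-out values could not be scored as moved, so counting them as kept is no test of stability. All 9 that moved were counts of members called, each 0 in edgeR as reported. DESeq2 gave 1 by tag family (536 genes in all against 7), 1 between RMH35 and RMH4 (658 against 7), 1 by full tag (1317 against 121), 2 with the CD79 chains (347 against 0), 4 with Csf1r (143 against 0) and 2 with the haemoglobins (828 against 404). Without the filter, edgeR gave 1 by full tag (1188 genes in all) and 1, Ighm, with the CD79 chains (13 genes). Leaving out 1 tumour at a time gave 0 to 1 by full tag, the 1 being Ccl5 without tumour 9, and 0 in every other fit. The cause was not tested. In all genes the count by tag family ran from 0 to 164 when 1 tumour was left out and between RMH35 and RMH4 from 0 to 527. Those counts were 27 and 95 without the filter, 1 and 1 with filterByExpr, 0 and 0 with RNA without a poly(A) tail as a covariate, and 12 for RMH35 against RMH4 with library totals; by full tag the covariate gave 19 and leaving out a tumour 11 to 176. DESeq2 called 12 genes with the CD3 chains, 17 with Glul and 1571 with Pecam1, against 0, 0 and 891. With the tag family as a covariate the counts were 37 with Glul, 418 with Pecam1 and 256 with the haemoglobins; with the poly(A) covariate they were 396 and 232 for the last 2, without the 2 extreme tumours 542 and 1, and without 1 tumour 420 to 1019 and 173 to 565. The median SD of the members on the log2 scale, 0.92, stayed between 0.79 and 1.00. The sum of all 37 genes, 33.1 CPM on average, ran from 30.4 to 35.6 CPM when 1 tumour was left out and was 22.7 CPM without Zap70. With 3 to 29 CD3 counts per tumour, depth does not allow T cell content to be ordered between most tumours.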

Other observations

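Segments of the antigen receptors outside the 37 genes gave a second view of lymphocyte reads. The 132 variable segments of T cell receptors had 0 to 10 counts per tumour, with none in tumour 5 and 10 in tumour 9, spread over at most 4 segments in a tumour. The 204 variable segments of immunoglobulins had 7 counts in tumour 10 to 73 in tumour 12, over 7 to 42 segments, and the leading segment held at most 14.3% of them, so no tumour had most of its counts from 1 segment. Among the immunoglobulin constant regions, Igha, of the class secreted at mucosal surfaces, led in tumours 4, 5, 12 and 13, with 130, 56, 140 and 61 counts, and Ighm led in the other 6. Igha and Jchain both had their highest level in tumour 4, at 9.02 and 2.15 CPM, and both were low in tumour 7, at 0.62 and 0.266 CPM, where Ighm was highest. By full tag edgeR did not call Igha, and tumour 4 is the only tumour of its tag, RMH4_5b, so that group had no replicate.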
